A study of Homo sapiens with 6 samples.

Results

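The genes described here are 32 genes of cholesterol and fatty acid synthesis, taken by symbol from a deposited expression table of 61280 gene rows. They cover 7 enzymes from acetyl-CoA to farnesyl diphosphate, 11 enzymes from squalene to cholesterol, 7 genes of sterol sensing and sterol transport, and 7 enzymes of fatty acid synthesis and desaturation. Each symbol had a single row in the table. The cells were MDA-MB-231, a human triple-negative breast cancer line of mesenchymal character that was grown in medium with serum. The irradiated group, labelled RT, had 20 Gy of X-rays and 24 h of culture afterwards, and the control group, labelled CT, was not treated. Each group had 3 RNA-seq libraries. The study asked how X-rays change the transcripts of these cells. Levels are in TPM, which scales each transcript by its length and by the library total, so that levels can be compared between genes. The labels do not say how long the controls were kept, so time in culture and irradiation cannot be told apart. Changes are the irradiated minus the control mean of log2(TPM + 1), and a gene is called when its limma p, Benjamini-Hochberg adjusted over 14621 tested rows, is under 0.05.

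Cells make cholesterol from acetyl-CoA through mevalonate, isoprenoid diphosphates, squalene and lanosterol, and they make fatty acids from the same precursor. The transcription factors SREBP-1 and SREBP-2, products of SREBF1 and SREBF2, control most of these enzymes. When sterols are low, SCAP escorts the factors from the endoplasmic reticulum to the Golgi for cleavage, and the released part binds sterol regulatory elements, often beside CCAAT boxes bound by NF-Y. When sterols are high, INSIG proteins hold SCAP in the endoplasmic reticulum. Serum supplies lipoprotein cholesterol and keeps the pathway partly repressed in culture.

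Of the 32 genes, 31 were expressed highly enough to be tested, and 7 were called, 4 higher and 3 lower in irradiated cells. In bulk RNA, fewer cells of a kind and less RNA per cell cannot be told apart. The 4 higher genes were sterol pathway enzymes, TM7SF2, MSMO1, NSDHL and FDPS. The 3 lower genes were SREBF2 and the desaturases SCD and FADS2. All 1550 called rows had no overlap between groups, so lack of overlap in a called member is not separate support. Of all tested rows, 34.9% had no overlap. The 7 calls are 22.6% of the tested members, against 10.6% of all tested rows, of which 6.53% were called higher and 4.07% lower. All tested rows include many of low level, whereas control means of the tested members ran from 7.87 to 266 TPM. With a filter of 5 TPM, 7 members and 1551 of 10512 rows were called. Among protein-coding genes alone, 7 members and 1797 of 12133 rows were called. The median change of the 31 was 0.05, against 0.03 over all tested rows. After median-ratio scaling, 2 members were called higher and 5 lower, and after correction for GC content and transcript length 3 were called higher and 5 lower. All rows moved the same way, from 955 higher and 595 lower to 778 and 852 after median-ratio scaling. After GC and length correction they were 730 and 1228. TM7SF2 and MSMO1 kept their calls in both fits, as did SREBF2, SCD and FADS2.

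The 250 bases before the RefSeq start of each called gene are shown, since SREBP factors act through such regions and these 7 genes moved both ways. Coordinates are on GRCh38.p14, plus strand. FADS2 had 2 RefSeq windows, of which the first listed is shown, and it lies inside the gene as the annotation used further on draws it. They are chr1:155308616-155308865 for FDPS, chr11:65111622-65111871 for TM7SF2, chr4:165327419-165327668 for MSMO1 and chrX:152830813-152831062 for NSDHL. For the lower genes they are chr22:41832855-41833104 for SREBF2, chr10:100346983-100347232 for SCD and chr11:61815953-61816202 for FADS2. Capitals mark CCAAT on either strand (ATTGG on the other), and the letters TCACNCCAC of a sterol regulatory element on either strand.
FDPS: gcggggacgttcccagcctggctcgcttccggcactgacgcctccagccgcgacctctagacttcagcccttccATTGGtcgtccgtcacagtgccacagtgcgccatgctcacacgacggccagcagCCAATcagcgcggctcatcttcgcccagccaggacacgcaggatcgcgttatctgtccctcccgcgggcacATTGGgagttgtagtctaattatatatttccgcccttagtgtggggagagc
TM7SF2: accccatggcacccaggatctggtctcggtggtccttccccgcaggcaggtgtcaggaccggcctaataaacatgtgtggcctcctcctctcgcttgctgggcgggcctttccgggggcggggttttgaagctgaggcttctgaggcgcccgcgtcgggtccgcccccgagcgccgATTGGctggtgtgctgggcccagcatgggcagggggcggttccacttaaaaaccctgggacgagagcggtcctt
MSMO1: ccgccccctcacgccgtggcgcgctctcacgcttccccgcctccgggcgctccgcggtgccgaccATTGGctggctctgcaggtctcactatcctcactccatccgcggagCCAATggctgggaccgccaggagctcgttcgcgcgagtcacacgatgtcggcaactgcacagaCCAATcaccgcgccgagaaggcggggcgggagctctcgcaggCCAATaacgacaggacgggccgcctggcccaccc
NSDHL: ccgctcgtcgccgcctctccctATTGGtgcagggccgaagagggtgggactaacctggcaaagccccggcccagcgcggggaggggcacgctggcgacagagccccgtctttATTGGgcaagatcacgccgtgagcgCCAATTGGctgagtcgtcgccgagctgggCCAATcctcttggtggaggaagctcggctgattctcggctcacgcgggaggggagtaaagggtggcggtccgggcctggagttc
SREBF2: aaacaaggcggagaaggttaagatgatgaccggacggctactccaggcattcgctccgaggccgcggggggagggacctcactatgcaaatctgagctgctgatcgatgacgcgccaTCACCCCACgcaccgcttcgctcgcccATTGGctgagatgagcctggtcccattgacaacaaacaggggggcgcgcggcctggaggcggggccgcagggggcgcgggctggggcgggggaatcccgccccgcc
SCD: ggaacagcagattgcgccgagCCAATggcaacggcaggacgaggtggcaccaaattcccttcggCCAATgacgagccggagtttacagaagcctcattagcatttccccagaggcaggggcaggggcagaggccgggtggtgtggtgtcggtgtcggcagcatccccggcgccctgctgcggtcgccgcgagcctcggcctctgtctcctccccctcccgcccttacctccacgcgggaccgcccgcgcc
FADS2: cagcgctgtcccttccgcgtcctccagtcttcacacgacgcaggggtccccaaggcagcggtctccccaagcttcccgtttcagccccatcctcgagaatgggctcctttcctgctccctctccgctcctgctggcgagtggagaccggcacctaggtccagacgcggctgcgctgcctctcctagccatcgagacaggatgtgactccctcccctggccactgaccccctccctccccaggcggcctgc
The sterol element letters occurred once, in SREBF2, as TCACCCCAC starting 133 bases before the start, with ATTGG at 106 bases before it. Windows were found for 28 of the 32 genes, and SREBF2 was the only one of them to hold these letters, or 3.57%, against 1.09% of all 27305 genes with a window. CCAAT stood in windows of 19 of the 28 genes (67.9%), against 37.0% of all genes with a window. All genes with a window were not limited to expressed or protein-coding genes, whereas all 32 members but 1 were expressed highly enough to be tested. A gene counted when any of its windows held the letters, and members had up to 3 windows. Whether the higher share belongs to this pathway was not tested. Among the called genes, MSMO1 and NSDHL had 4 and 5 copies, FDPS 3, SCD 2, TM7SF2 and SREBF2 1 each, and FADS2 none in either of its 2 windows. In NSDHL a forward and a reverse copy share 2 bases. These are letter matches, not measured binding. A sterol element with other letters, or outside these bases, would not be marked, so a window without a match may still have one. ACAT2, FDFT1, SQLE and FASN had no window and were not searched.

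Of the 7 enzymes of the early steps to farnesyl diphosphate, FDPS alone was called, or 14.3%, against 10.6% of all tested rows. FDPS (ENSG00000160752; chromosome 1, 155308748 to 155320666, hg38), the synthase that makes farnesyl diphosphate for sterols and protein prenylation, had 295, 313 and 302 TPM in irradiated replicates 1, 2 and 3, against 253, 267 and 279 TPM in the controls. The groups did not overlap, and the log2 change was 0.19 ± 0.05 (SE, adjusted p = 0.0474). The call was lost with any 1 library left out and in 6 of 12 other alternatives (adjusted p up to 0.217, the highest coming from the GC and length fit). IDI1, the isomerase before it, averaged 67.5 ± 2.95 TPM in irradiated cells and 58.0 ± 4.22 TPM in controls (SD, n = 3 each; adjusted p = 0.0770). Changes of ACAT2, HMGCS1 and MVD were 0.09 each, and those of the kinases MVK and PMVK were -0.00 and 0.01. None of these 5 was called. MVD and PMVK had values below 0 after GC and length correction, and PMVK also after median-ratio scaling. HMGCS1, which makes HMG-CoA and is a classical SREBP-2 target, is given in full because its irradiated libraries disagreed, a choice made after its values were seen. It had 122, 86.7 and 119 TPM in irradiated replicates 1, 2 and 3, against 103, 104 and 97.1 TPM in the controls. Irradiated replicate 2 lay below all controls and the other two above them. The change was 0.09 with a 95% interval of -0.20 to 0.38 (adjusted p = 0.678), and 0.25 without irradiated replicate 2 (adjusted p = 0.0338).

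**Figure D1:**
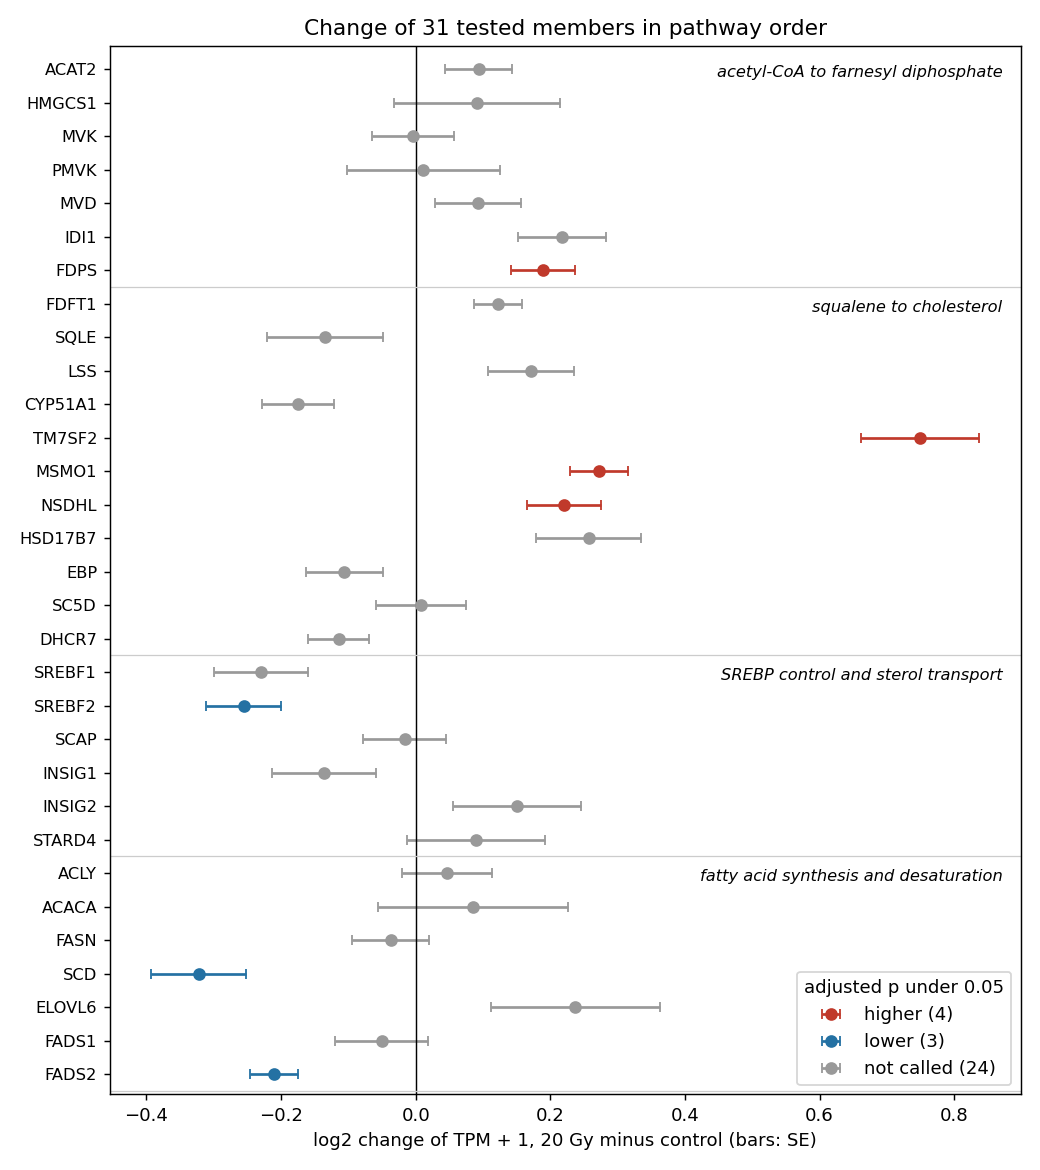
Log2 change of TPM + 1 (irradiated minus control) for the 31 tested members, in pathway order from top to bottom. Points are fitted changes with SE bars, red for the 4 genes called higher, blue for the 3 called lower and grey for the 24 not called. TM7SF2 stands out at 0.75, and the other members lie between -0.32 and 0.27.

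In the squalene-to-cholesterol branch, 3 of 11 enzymes were called, all higher and of neighbouring steps after lanosterol. They are 27.3%, against 10.6% of all tested rows (6.53% higher and 4.07% lower). TM7SF2 changed more than any other member. TM7SF2 (ENSG00000149809; chromosome 11, 65111845 to 65116384) encodes the sterol reductase that acts on the product of CYP51A1. It had 35.1, 41.0 and 32.9 TPM in the irradiated libraries, against 21.7, 21.4 and 20.3 TPM in the controls. Every irradiated value was well above every control value, a 1.72-fold difference of means. The log2 change was 0.75 ± 0.09 (SE, adjusted p = 0.00627), and it was called in all 18 alternatives (adjusted p up to 0.0362). VPS51, which shares 16 bases of the same strand with TM7SF2 in the annotation, had a change of 0.05 (adjusted p = 0.786).

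The next enzymes of the branch take off the methyl groups left on the ring. MSMO1 (ENSG00000052802; chromosome 4, 165327623 to 165343160), the methylsterol oxidase that begins this, had 98.9, 97.9 and 98.7 TPM in irradiated libraries, against 83.6, 78.7 and 81.8 TPM in controls. The irradiated values nearly coincided, above all controls, with a change of 0.27 ± 0.04 (SE, adjusted p = 0.0134). The call was lost without control replicate 2 (adjusted p = 0.0624) and without irradiated replicate 3 (adjusted p = 0.0505). It was also lost with the replicate block (adjusted p = 0.0528). NSDHL (ENSG00000147383; chromosome X, 152830967 to 152869729), the dehydrogenase that follows MSMO1, had 43.7, 47.0 and 45.4 TPM in irradiated libraries, against 38.1, 37.9 and 40.4 TPM in controls. There was no overlap, and the change was 0.22 ± 0.06 (SE, adjusted p = 0.0474). It was not called when any 1 library was dropped, nor in 6 other alternatives, among them median-ratio scaling and quantile normalization (adjusted p up to 0.151). HSD17B7, the ketoreductase that completes the cycle, had 23.0, 21.8 and 24.7 TPM in irradiated libraries, against 18.8, 18.3 and 20.6 TPM in controls. These did not overlap either, but the change of 0.26 ± 0.08 (SE) was not called (adjusted p = 0.0781). With GC and length trends removed it was (adjusted p = 0.0483).

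The other 7 enzymes of this branch were not called. FDFT1, the squalene synthase, and LSS, which forms lanosterol, had changes of 0.12 and 0.17. FDFT1 was called higher after quantile normalization (adjusted p = 0.0294) and without mitochondrially encoded genes (adjusted p = 0.0488). SQLE, the squalene epoxidase and a rate-limiting step, had a change of -0.13. CYP51A1, the lanosterol demethylase just before TM7SF2, had a change of -0.17 (adjusted p = 0.0801) and was called lower after median-ratio scaling. EBP and DHCR7, late isomerase and reductase, had changes of -0.11 each, and SC5D, a late desaturase, 0.01. After GC and length correction DHCR7 was at -0.22 and called lower (adjusted p = 0.0214), and EBP was at -0.20 and not called (adjusted p = 0.0705). Within the 11 genes, 9 had no overlap between groups. That compares with 17 of all 31 members and 34.9% of all tested rows, and the 9 include both directions.

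**Figure D2:**
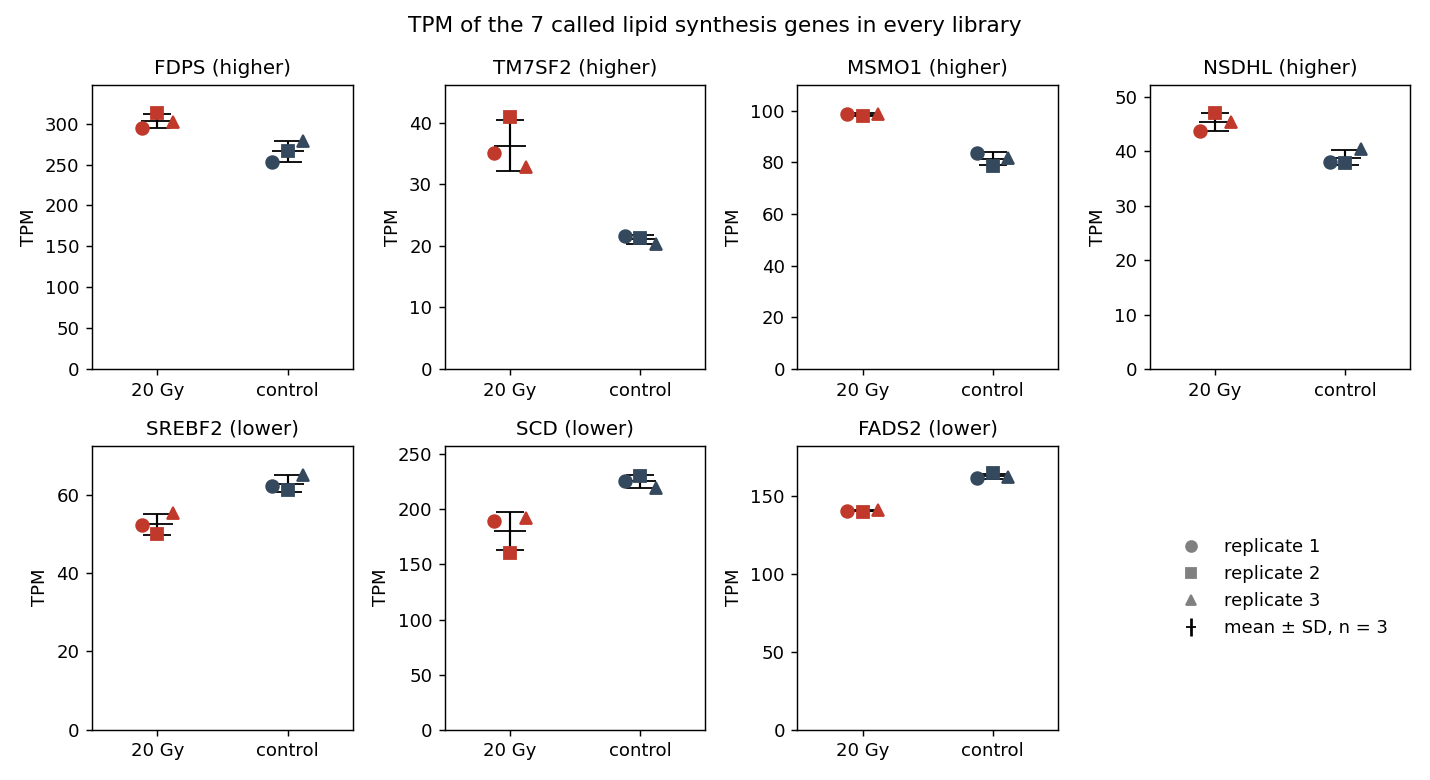
TPM (linear axis from 0) of the 7 called members in each library, irradiated on the left and control on the right of each panel. Symbols mark replicates 1 to 3 and bars the mean ± SD (n = 3). No gene's groups overlap, which was so for all 1550 called rows and is not separate support. TM7SF2 shows 32.9 to 41.0 TPM in irradiated cells, against 20.3 to 21.7 TPM in controls.

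Among the regulators, the transcripts of both SREBP genes had lower levels in irradiated cells, and SREBF2 was called. SREBF2 was the only call among 6 tested genes of sterol sensing and transport (16.7%, against 10.6% of all tested rows). SREBF2 (ENSG00000198911; chromosome 22, 41833079 to 41907308), which encodes the factor that mainly drives sterol synthesis, had 52.2, 50.1 and 55.4 TPM in irradiated libraries, against 62.3, 61.3 and 65.2 TPM in controls. All irradiated values were below all controls, and the change was -0.26 ± 0.06 (SE, adjusted p = 0.0321). Leaving out any 1 library ended the call (adjusted p = 0.0510 to 0.0948). The call was also lost with no filter, with eBayes without trend and with the replicate block. SREBF1, whose product mainly drives fatty acid synthesis, had 38.0, 37.1 and 39.9 TPM in irradiated libraries, against 41.5, 48.5 and 45.6 TPM in controls. It did not overlap between groups but was not called (change -0.23 ± 0.07 SE, adjusted p = 0.0800). It was called lower after median-ratio scaling and after GC and length correction (adjusted p down to 0.0145). SREBF1 shares 1055 bases with RAI1 on the opposite strand, and reads of the strands may not be separated in this table.

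SCAP, the escort of both factors, had 39.9, 41.2 and 42.9 TPM in irradiated libraries, against 40.1, 40.8 and 44.6 TPM in controls. The groups overlapped, and the 95% interval of the change was -0.16 to 0.13 (log2). INSIG1, the retention factor and itself an SREBP target, had 59.6, 50.7 and 59.7 TPM in irradiated libraries, against 66.0, 60.6 and 60.2 TPM in controls. Replicates 1 and 3 lay just below the lowest control and replicate 2 far below it. The change of -0.14 was not called (interval -0.32 to 0.04, adjusted p = 0.297). INSIG2, the less sterol-responsive partner, averaged 8.82 ± 0.169 TPM in irradiated cells and 7.87 ± 0.741 TPM in controls. STARD4, a sterol carrier, averaged 32.2 ± 4.62 TPM in irradiated cells and 30.0 ± 0.480 TPM in controls, and neither was called. ABCA1, the cholesterol exporter, was the untested member, with 0.86, 0.45 and 0.65 TPM in irradiated libraries, against 0.53, 0.64 and 0.70 TPM in controls.

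Of the 7 fatty acid genes, 2 were called, both lower (28.6%, against 10.6% of all tested rows and 4.07% called lower). They were a saturated-chain desaturase and a polyunsaturated-chain desaturase, while the core synthase showed no call in either direction. SCD (ENSG00000099194; chromosome 10, 100347124 to 100364834), the stearoyl-CoA desaturase that makes oleate, had 189, 161 and 192 TPM in irradiated libraries, against 226, 231 and 219.7 TPM in controls. The highest irradiated value was below the lowest control, and the change was -0.32 ± 0.07 (SE, adjusted p = 0.0324). Without irradiated replicate 2, the lowest, the change was -0.24 and still called. The call was lost with any of the other 5 libraries left out (adjusted p up to 0.116). It was also lost with no filter, with eBayes without trend and with the replicate block. FADS2 (ENSG00000134824; chromosome 11, 61792980 to 61867354), the first desaturase of polyunsaturated fatty acid synthesis, had 140.5, 139.9 and 140.8 TPM in irradiated libraries, against 161, 164 and 162 TPM in controls. It was uniform within each group and lower in irradiated cells, with a change of -0.21 ± 0.04 (SE, adjusted p = 0.0165). Dropping control replicate 1, control replicate 2 or irradiated replicate 3 ended the call (adjusted p up to 0.0735). So did eBayes without trend and the replicate block. In the annotation FADS2 overlaps FEN1, a replication nuclease gene of the same strand, by 4265 bases. FEN1 averaged 163 ± 3.47 TPM in irradiated cells and 183 ± 6.08 TPM in controls (change -0.16, adjusted p = 0.0501). The part of FEN1 reads in the FADS2 value was not tested.

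FASN, the multi-domain fatty acid synthase, had 162, 150.1 and 170.4 TPM in irradiated libraries, against 170.3, 158 and 166 TPM in controls. The groups overlapped, and the change of -0.04 had a 95% interval of -0.17 to 0.10. ELOVL6, which extends palmitate to stearate, had 23.9, 21.4 and 30.6 TPM in irradiated libraries, against 22.3, 21.0 and 20.0 TPM in controls. Only irradiated replicate 3 was clearly apart, and the change of 0.24 ± 0.13 (SE) was not called (adjusted p = 0.265). ACLY and ACACA, which make cytosolic acetyl-CoA and malonyl-CoA, had changes of 0.05 and 0.08, and FADS1 had -0.05. None was called. ACLY was below 0 after GC and length correction. FADS1 and FADS2 share 29694 bases on opposite strands, so their values may not be separate.

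**Figure D3:**
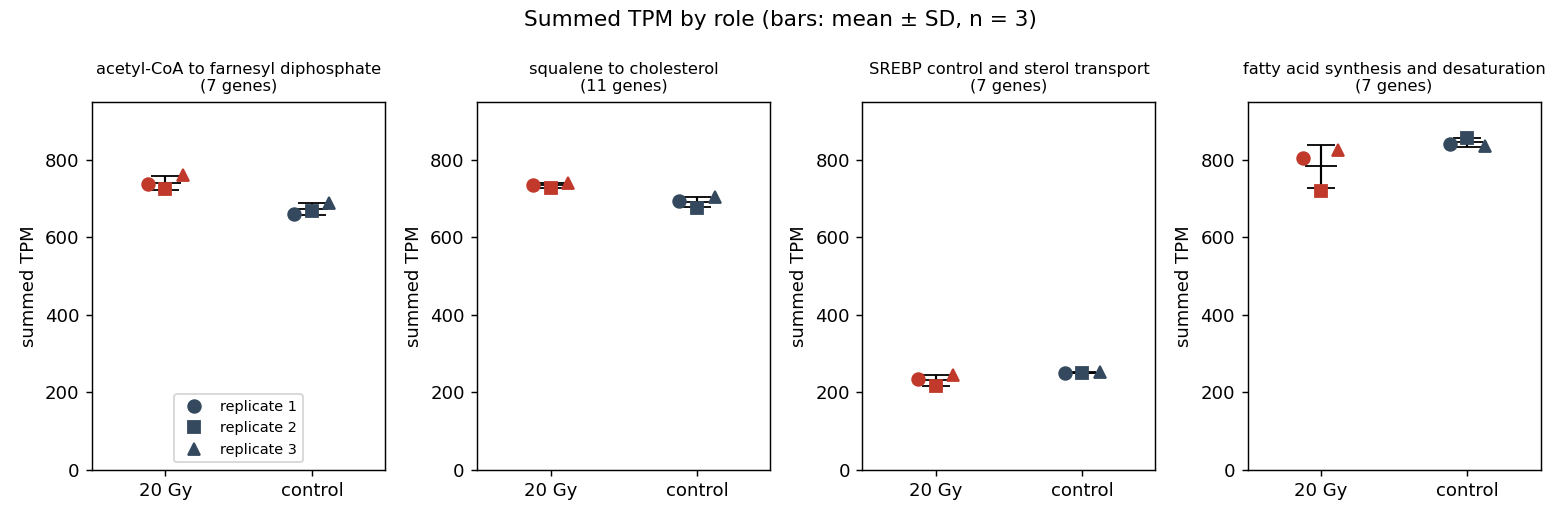
Summed TPM (linear axis from 0) of the genes of each role in every library, irradiated on the left and control on the right. Symbols mark replicates and bars the mean ± SD (n = 3). Both sterol panels are higher in irradiated libraries, and the regulator and fatty acid panels are lower.

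Summed over roles, the levels differed little between groups, a description with no test. The early steps summed to 741 ± 18.4 TPM in irradiated cells and 673 ± 15.3 TPM in controls (SD, n = 3 each), 10.1% higher. The squalene-to-cholesterol enzymes summed to 735 ± 6.29 TPM in irradiated cells and 691 ± 14.2 TPM in controls, 6.26% higher. The regulators and sterol transport genes summed to 231 ± 14.3 TPM in irradiated cells and 251 ± 2.12 TPM in controls. The fatty acid enzymes summed to 784 ± 55.7 TPM in irradiated cells and 845 ± 10.7 TPM in controls. The regulator sum was -8.02% relative to controls, and -4.93% without irradiated replicate 2. The fatty acid sum was -7.23% relative to controls, and -3.49% without that library. In all 4 sums the irradiated and control libraries did not overlap, and 34.9% of single tested rows had no overlap either. The sums include the called members, so this is not separate support. The sums weigh abundant genes most and are not a shift of every gene in a role. In the fatty acid sum, SCD averaged 181 TPM in irradiated cells and 225 TPM in controls, and FADS2 140 and 163 TPM. The changes of ACLY, ACACA, FASN, ELOVL6 and FADS1 ran from -0.05 to 0.24, and none was called. In the early sum, FDPS averaged 303 TPM in irradiated cells and 266 TPM in controls.

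**Figure D4:**
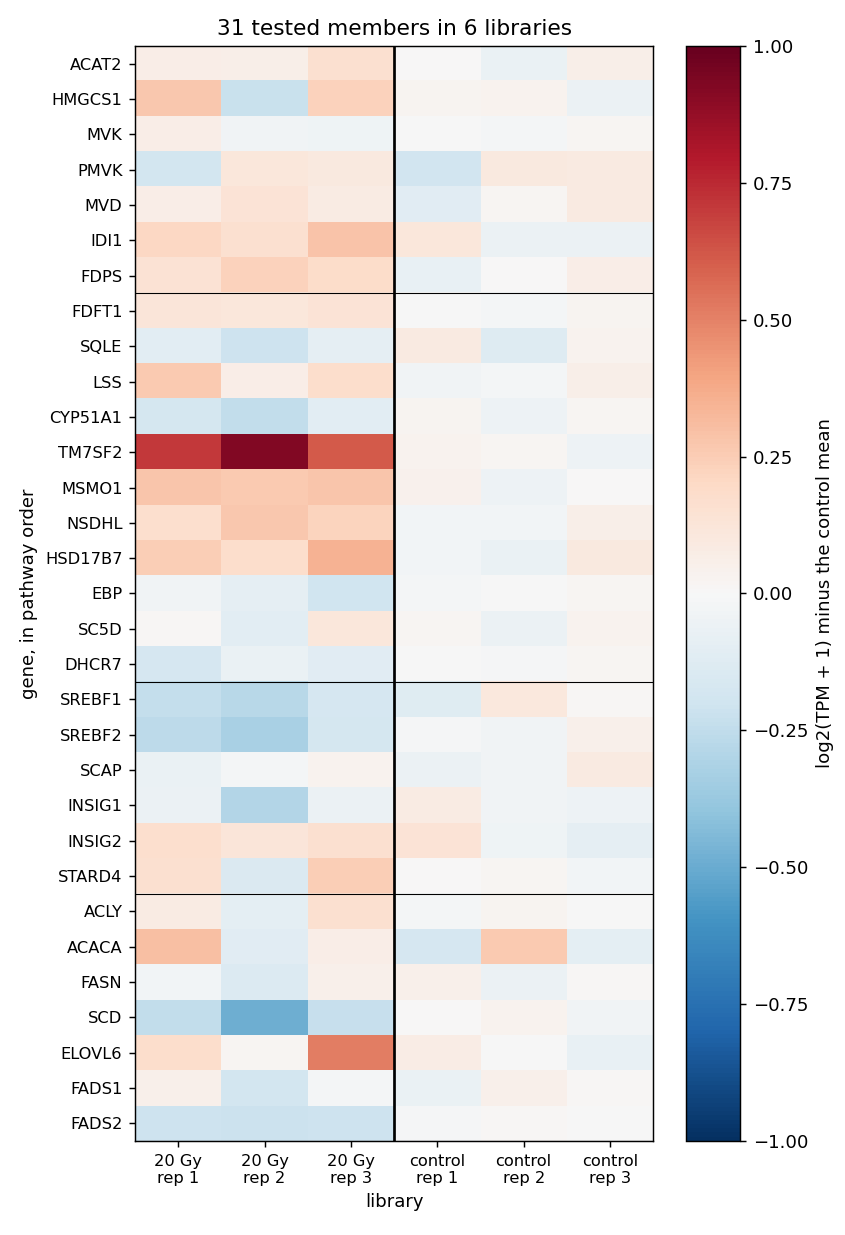
Heat map of log2(TPM + 1) minus the control mean for 31 tested members (rows, in pathway order) in 3 irradiated (left) and 3 control (right) libraries. Red is above and blue below the control mean. TM7SF2, MSMO1 and NSDHL are red in all irradiated libraries, and SREBF2, SCD and FADS2 are blue; HMGCS1, STARD4 and ACLY change colour in irradiated replicate 2.

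The irradiated libraries differed among themselves. Irradiated replicate 2 was the lowest irradiated library for 22 of 31 members (71.0%), against 54.7% of all tested rows. All 7 fatty acid genes were among them. The median deviation of the members from the control mean was -0.07 in it (log2), against 0.06 and 0.10 in irradiated replicates 1 and 3. On the second principal component of all tested rows it lay at 25.4, against -23.9 and -6.55 for replicates 1 and 3 and -0.36 to 4.32 for the controls. Without irradiated replicate 2, 5 members were called, 3 higher and 2 lower, and HMGCS1 was one of the 3. In that fit 1390 of all 14621 tested rows were called, 892 higher and 498 lower. Of the checks on identity, VIM had 1583 to 1599 TPM in irradiated libraries and 1936 to 2011 TPM in controls and was itself called lower (change -0.31, adjusted p = 0.00479). It was the only call among 7 tested genes of that list (14.3%, against 10.6% of all tested rows). In the same list EPCAM had a change of -0.25 (adjusted p = 0.130) and the muscle gene MYH3 0.74 (adjusted p = 0.0537). PGR was listed at 0 and ESR1 stayed under 0.4 TPM in all 6 libraries. CDH1 did not exceed 0.4 TPM in any library. EPCAM was not that low, with 8.32 to 8.61 TPM in irradiated libraries and 9.43 to 11.27 TPM in controls. CD44 had 186 to 268 TPM in irradiated libraries and 209 to 222 TPM in controls. KRT18 had 340 to 371 TPM in irradiated libraries and 353 to 375 TPM in controls. The leukocyte gene PTPRC had 40.4 TPM in irradiated replicate 1 alone, where CD3E had 0.05 TPM, and under 0.5 TPM elsewhere. Its part in the results was not tested.

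Genes of sterol transport, SREBP processing and LXR gave 2 calls, read here against the 10.6% of all tested rows. Of 18 genes of sterol uptake, storage and transfer, 1 was called (5.56%). SCARB1, a lipoprotein receptor that takes up cholesterol esters, was higher, with 39.2 ± 2.68 TPM in irradiated cells and 31.4 ± 1.24 TPM in controls (change 0.31 ± 0.07 SE, adjusted p = 0.0318). Dropping any library except irradiated replicate 2 ended its call, as did the GC and length fit (adjusted p up to 0.109). None of 15 genes of SREBP processing and turnover was called at an adjusted p under 0.05 in limma, and none had an unadjusted p under 0.05. The most abundant of these, VCP and SEC23A, had changes of -0.05 and -0.18. Of 8 tested genes of LXR, the oxysterol receptor that drives cholesterol efflux, only the receptor gene NR1H3 was called (12.5%). It averaged 14.4 ± 1.40 TPM in irradiated cells and 9.41 ± 0.888 TPM in controls (change 0.56 ± 0.10 SE, adjusted p = 0.0201). Its call was lost with control replicate 1, control replicate 2 or irradiated replicate 3 dropped (adjusted p up to 0.0826).

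Farnesyl diphosphate, the product of FDPS, also feeds prenyl groups and ubiquinone, and 3 of 16 genes of that branch were called (18.8%, against 10.6% of all tested rows). GGPS1, the synthase of geranylgeranyl diphosphate, was higher, with 11.5 ± 0.805 TPM in irradiated cells and 8.39 ± 0.940 TPM in controls (change 0.42 ± 0.11 SE, adjusted p = 0.0482). COQ2, the prenyltransferase of ubiquinone synthesis, was lower, with 26.6 ± 2.60 TPM in irradiated cells and 36.7 ± 1.74 TPM in controls (change -0.45 ± 0.08 SE, adjusted p = 0.0187). ICMT, which methylates prenylated proteins, was lower, with 57.1 ± 3.09 TPM in irradiated cells and 69.5 ± 1.15 TPM in controls (change -0.28 ± 0.05 SE, adjusted p = 0.0226). Of 22 tested genes of fatty acid supply, activation and elongation, only the dehydratase gene HACD2 was called, 4.55% and under the share of all tested rows. It was lower (change -0.29 ± 0.07 SE, adjusted p = 0.0371). GGPS1 was not called with any 1 library dropped (adjusted p up to 0.130). COQ2 and ICMT kept theirs in 2 of those 6 fits, without irradiated replicate 1 or irradiated replicate 2, and HACD2 in 1, without irradiated replicate 2 (adjusted p up to 0.128). The list medians lay between -0.06 and 0.06.

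**Figure D5:**
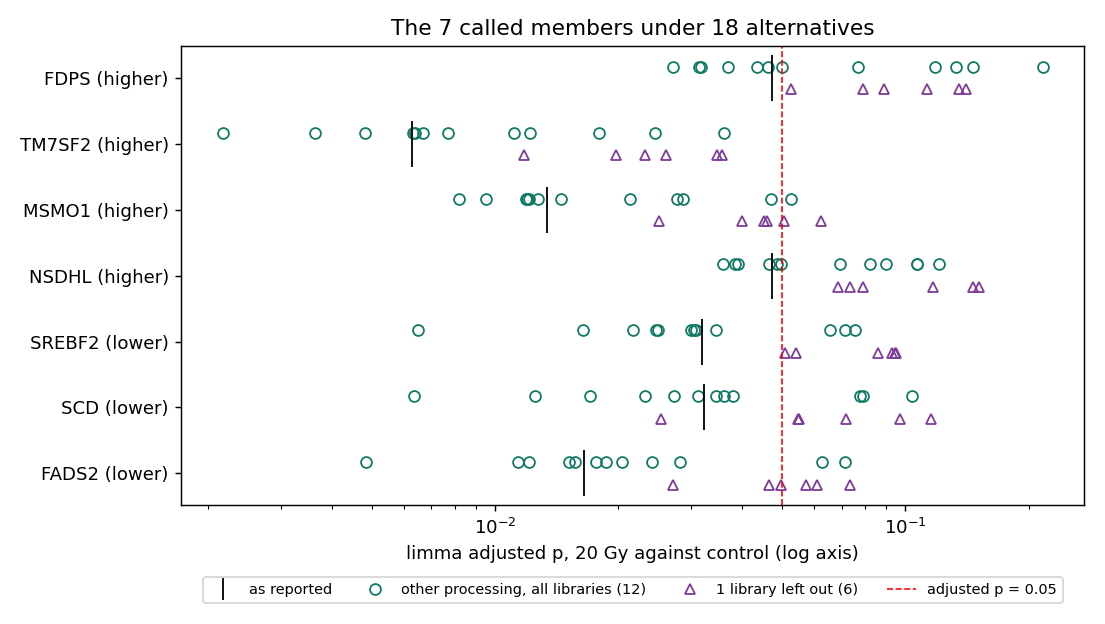
Adjusted p (log axis) of the 7 called members in 18 alternatives, with circles for 12 other ways of processing, triangles for 6 fits with 1 library left out and a black bar for the value as reported. The dashed line is 0.05. TM7SF2 stays left of the line throughout, and FDPS and NSDHL cross it in 12 of 18.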

How the data were processed

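RNA-seq libraries were made from total RNA with a TruSeq kit, per the labels' protocols. The submitters' processing notes name HISAT2, StringTie, RSEM and hg38, with no versions or roles; strand handling is not given in the sources used here. The authors deposited TPM values per gene, with no counts, so read depth is not known and errors rest on how far replicate libraries differ. Groups came from the sample titles, which do not say whether replicates were separate cultures, so p-values may measure technical spread only. No pair of libraries of a group had more than 0.479% identical values among tested rows.

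A row was tested when 3 or more of the 6 libraries reached 1 TPM (14621 rows) on log2(TPM + 1), which understates changes of low genes, with limma 3.58.1 in R 4.3.3 (eBayes with trend, two-sided) and Benjamini-Hochberg adjustment at 0.05. The pipeline was tested on simulated data. The genes and lists were chosen with earlier results of these data known. Values in every library were given for called members and for uncalled members of largest change up to 10 in all. They were also given for SREBF1, SREBF2, SCAP, INSIG1, FASN and SCD. In other lists, group means or changes were given for up to 4 called genes or the 2 most abundant. Transcript lengths, GC content and gene overlaps came from GENCODE 29 (97.4% of tested rows matched), and promoter sequences from RefSeq on GRCh38.p14; motif shares cover the 250 bases before each start. Alternatives changed the pseudocount (0.1 or 5), the filter (none or 5 TPM), the scaling (median ratios, quantiles, or TPM without mitochondrially encoded genes), the variance model (no trend, or robust) and the rows (protein-coding alone). Others removed cubic GC and length trends, added a replicate block, or left out each library.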

Additional observations from a re-analysis of the deposited data

How the results depend on the processing

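Of the 7 called members, none changed direction in 18 alternatives. The count of 7 was 3 with no filter, 2 with eBayes without trend and 1 with the replicate block. No member was called lower in the last 2 of these fits. With 1 library left out the count ranged from 1 to 5. Such smaller fits are weaker tests, and a lost call does not by itself point to the missing library. Over all tested rows, the 1550 calls were 497 with no filter, 993 with eBayes without trend and 362 with the replicate block, and 306 to 1390 with 1 library left out. The 11 calls in the other lipid lists were 2 with no filter, 7 with eBayes without trend, 17 after GC and length correction, 17 among protein-coding genes alone and 1 with the replicate block, and 1 to 11 with 1 library left out. All calls over tested rows were 955 higher and 595 lower, against 778 and 852 after median-ratio scaling and 730 and 1228 after GC and length correction. The member median of 0.046 was -0.021 after GC and length correction, and 0.0083 to 0.072 with 1 library left out. Over all tested rows the median of 0.028 was -0.017 and 0.0067 to 0.064 in the same fits. After quantile normalization the member median was 0.073, against -0.0085 over all tested rows. The squalene-to-cholesterol sum, 6.26% higher, was 4.03% higher after median-ratio scaling; the cause was not tested. The sums with a library left out were an alternative chosen after seeing the data. In a TPM table a rise of abundant transcripts lowers all other shares, and no depth can be recovered to tell these apart.

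Replicates 1 to 3 exist in each group, but the deviations of libraries with the same number correlated at 0.03, -0.06 and -0.03, so they were not treated as pairs. With the replicate block, TM7SF2 alone was called among the members.

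Values crossed 0 in members that were not called. PMVK was -0.019 after median-ratio scaling and -0.11 after GC and length correction. SC5D was -0.023 after median-ratio scaling, MVD -0.045 and ACLY -0.021 after GC and length correction, and MVK 0.0059 without mitochondrially encoded genes. With 1 library left out, MVK ranged from -0.039 to 0.013, PMVK from -0.083 to 0.11, SC5D from -0.047 to 0.064 and SCAP from -0.046 to 0.030. In the same fits ACLY ranged from -0.011 to 0.12, ACACA from -0.023 to 0.22, FASN from -0.080 to 0.011 and FADS1 from -0.0995 to 0.014.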

Other observations

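Of 19 tested genes of glycerolipid synthesis and lipid droplets, 2 were called lower and 1 higher, or 15.8%, against 10.6% of all tested rows (6.53% higher and 4.07% lower). PLIN2, the coat protein of lipid droplets, averaged 44.5 ± 2.44 TPM in irradiated cells and 56.1 ± 1.05 TPM in controls (SD, n = 3 each; log2 change -0.33 ± 0.06 SE, limma adjusted p = 0.0167). GPAT3, an acyltransferase at the start of triglyceride synthesis, averaged 8.48 ± 0.786 TPM in irradiated cells and 12.3 ± 0.168 TPM in controls (change -0.49 ± 0.09 SE, adjusted p = 0.0204). PNPLA2, the lipase that begins triglyceride breakdown, averaged 101 ± 4.63 TPM in irradiated cells and 86.5 ± 3.71 TPM in controls (change 0.22 ± 0.05 SE, adjusted p = 0.0431). With 1 library dropped, PNPLA2 was called in 0 of 6 fits (adjusted p up to 0.317 over all alternatives), GPAT3 in 2, those without irradiated replicate 1 or irradiated replicate 2, and PLIN2 in 3. PLIN2 lost its call without control replicate 1, control replicate 2 or irradiated replicate 1.

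Of 20 fatty acid oxidation genes, 2 were called, both higher, or 10.0%, near the 10.6% of all tested rows. CPT1C, the carnitine palmitoyltransferase form best known from neurons, averaged 47.8 ± 3.34 TPM in irradiated cells and 33.5 ± 1.58 TPM in controls (change 0.50 ± 0.07 SE, adjusted p = 0.00921). ACADVL, a dehydrogenase of long chains in mitochondria, averaged 314 ± 10.9 TPM in irradiated cells and 273 ± 11.9 TPM in controls (change 0.20 ± 0.05 SE, adjusted p = 0.0394). CPT1C was called with each library dropped but not with the replicate block (adjusted p = 0.0502), whereas ACADVL was called only without irradiated replicate 2 among those fits, and its change was 0.08 after GC and length correction (adjusted p = 0.349). CPT1A, the form of most tissues, had a change of -0.16 and was not called; it was named after its values were seen.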
